A study of Homo sapiens with 12 samples.

Results

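Branched-chain amino acid catabolism was followed in the established human glioblastoma line U251 through 7 genes: BCAT1, BCAT2, BCKDHA, BCKDHB, BCKDK, DBT and DLD. The members were all probe sets annotated to 1 of these symbols and to no other gene, which gave 14 probe sets of 17313, for 7 of 10346 genes. BCAT1 had 4 probe sets, DBT 3, BCKDHB and DLD 2 each, and BCAT2, BCKDHA and BCKDK 1 each. BCAT1 was chosen for its large fall with NFKB1 siRNA in these same arrays, and the other 6 genes for their place in the pathway. BCAT1 comparisons with the control or NFKB1 siRNA group are therefore given as a description, with no test, and so are the values of all members for NFKB1 siRNA against control.

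The cells, obtained from the ATCC, were transfected with small interfering RNA (siRNA) pools, each at 50 nM, in DharmaFECT 2. The 4 groups of 3 arrays received a control siRNA with no known human target, ETV6 siRNA, NFKB1 siRNA, or ETV6 and NFKB1 siRNA together (here double siRNA). Double siRNA thus gave more siRNA in total than either siRNA alone. All groups are of 1 cell line with no genetic change made for the study, the knock-down was transient, and the sources used here do not give the time between transfection and lysis. Total RNA was labelled with biotin and hybridized to Affymetrix expression arrays, which read each transcript through sets of short probes. The labels do not state whether replicates were separate cultures, and p-values therefore measure only the spread between these samples, which may be technical.

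The branched-chain amino acids leucine, isoleucine and valine lose their amino group to 2-oxoglutarate, which yields glutamate and branched-chain keto acids. The cytosolic aminotransferase BCAT1 and the mitochondrial BCAT2 carry out that reversible step, and BCAT1 is known for its high level in glioblastoma with wild-type isocitrate dehydrogenase. The keto acids are then committed to breakdown in mitochondria by the branched-chain keto acid dehydrogenase complex. Its E1 component is made of BCKDHA and BCKDHB, its E2 core of DBT and its E3 component of DLD, while the kinase BCKDK inhibits E1 and the phosphatase PPM1K reactivates it.

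Both targeted transcripts were lower where targeted. ETV6, a repressor of the ETS family, stood at 22.6% of control with ETV6 siRNA and at 35.1% with double siRNA by its brightest probe set. NFKB1, which encodes the NF-κB precursor p105, stood at 60.3% of control with NFKB1 siRNA, at 58.8% with double siRNA and at 141% with ETV6 siRNA. The NFKB1 siRNA arrays ranged from 6.05 to 6.95 on the log2 scale, the widest of the 4 groups for that probe set. The 3 double siRNA arrays stood apart from the other 9. Their poly-A spike-in probe sets averaged 7.97 to 8.05 (8.37 to 9.35 elsewhere), and the 3′ probe set of ACTB exceeded its 5′ probe set by 2.05 to 2.16 (1.52 to 1.91 elsewhere). Their 5th percentile lay at 6.15 to 6.16 against 5.46 to 6.04, and their median at 8.34 to 8.38 against 8.08 to 8.27. Control replicate 3 had the highest ACTB difference of the other 9 arrays, 1.91, and the lowest spike-in mean of the controls, 8.53. The part of these array differences in the results for double siRNA was not tested. Of 9 astrocytic and glioma markers 8 were above the median on every array, among them GFAP, VIM and SOX2, and CHI3L1 lay between percentiles 40 and 65. For epithelial, immune, endothelial and neuronal cells 12 markers were looked up, and 0 had a single-gene probe set among the deposited rows. Their levels could therefore not be read.

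Because BCAT1 was chosen on an NFKB1 knock-down, 2 of its promoter windows are shown with the letters of a loose NF-κB motif. RefSeq (GRCh38.p14) gave 5 windows for BCAT1 on the minus strand of chromosome 12, in an outer group of 2 transcription starts and an inner group of 3. The most upstream starts of the groups lie 46273 bases apart. The windows printed are the 250 bases before each of those starts, chr12:24949341-24949590 for the outer and chr12:24903068-24903317 for the inner, 5′ to 3′ on the minus strand. Capitals mark matches, on either strand, to GGG followed by 5 bases of any kind and CC.
BCAT1 outer window: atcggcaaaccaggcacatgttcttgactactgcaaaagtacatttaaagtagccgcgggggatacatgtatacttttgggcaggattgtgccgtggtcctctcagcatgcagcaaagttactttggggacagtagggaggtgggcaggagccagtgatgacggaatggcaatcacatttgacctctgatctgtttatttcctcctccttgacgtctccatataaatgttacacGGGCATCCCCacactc
BCAT1 inner window: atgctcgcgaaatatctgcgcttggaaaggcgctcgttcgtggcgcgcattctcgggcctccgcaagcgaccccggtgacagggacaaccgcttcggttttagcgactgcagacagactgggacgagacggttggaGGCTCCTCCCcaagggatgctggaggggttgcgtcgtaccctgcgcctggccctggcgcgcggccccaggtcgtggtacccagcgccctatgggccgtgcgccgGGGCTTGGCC
The outer window holds 1 match, whose first base lies 16 bases before the start, and the inner window holds 2, at 114 and 10 bases before it. This motif was present in 54.4% of the 35116 windows of the same length in the table, so its presence here is a description of letters and does not set BCAT1 apart. The ETS sequence CCGGAAGT (1202 windows, 3.42%) and the E-box CACGTG (2228 windows, 6.34%) had 0 matches in the 11 windows of the members. That says only that these letters are not in these windows. A window was found for 6 of the 7 genes, and BCAT2 had none.

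By its brightest probe set BCAT1 was highest with double siRNA, then control, then ETV6 siRNA, and lowest with NFKB1 siRNA. Probe set 225285_at read log2 9.51, 9.53 and 10.11 with control siRNA. It read 8.67, 9.05 and 8.78 with ETV6 siRNA. It read 7.64, 7.57 and 7.39 with NFKB1 siRNA. With double siRNA the same probe set read 10.07, 10.20 and 10.05. All NFKB1 siRNA arrays lay below all ETV6 siRNA arrays, and these below all control arrays, while control replicate 3 lay among the double siRNA arrays. Group means were 9.72 ± 0.34 for control, 8.84 ± 0.20 for ETV6, 7.53 ± 0.13 for NFKB1 and 10.11 ± 0.08 for double siRNA (SD, n = 3). With NFKB1 siRNA the mean was thus at 22% of control, a difference of -2.19 (SE 0.15), and with ETV6 siRNA at 54.2%, a difference of -0.88. The double siRNA mean stood 0.39 above control, with overlapping arrays.

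The second bright probe set, 226517_at, ordered the groups in the same way. It read 9.19, 9.18 and 9.84 with control siRNA and 8.48, 8.80 and 8.39 with ETV6 siRNA. It read 7.37, 7.33 and 6.71 with NFKB1 siRNA and 9.71, 9.82 and 9.73 with double siRNA. NFKB1 siRNA replicate 3 was the lowest array of all. The differences from control were -2.27 with NFKB1 siRNA (20.8% of control), -0.84 with ETV6 siRNA and 0.35 with double siRNA. In the comparison that chose BCAT1, 226517_at was the lowest of the 17313 probe sets and 225285_at was number 2, and BCAT1 was the lowest of 10346 genes by brightest probe set.

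The size of these differences moved with control replicate 3. That array exceeded the mean of control replicates 1 and 2 by 0.59 for 225285_at and by 0.65 for 226517_at. Without it the NFKB1 siRNA differences were -1.99 and -2.05, and the ETV6 siRNA differences were -0.69 and -0.63. Without it double siRNA stood 0.58 and 0.57 above control, with no array of either group in the other's range.

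The 2 dimmer BCAT1 probe sets gave another picture for double siRNA. Probe set 214452_at read 7.04, 7.16 and 7.43 with control siRNA and 7.39, 7.28 and 7.27 with ETV6 siRNA. It read 6.37, 6.46 and 6.22 with NFKB1 siRNA and 6.59, 6.74 and 6.59 with double siRNA. Here the double siRNA arrays lay just above the NFKB1 siRNA arrays and below all control and ETV6 siRNA arrays. Its differences from control were -0.85 with NFKB1 siRNA, 0.11 with ETV6 siRNA and -0.57 with double siRNA. Probe set 214390_s_at spanned only 5.96 to 6.57 over the 12 arrays, between percentiles 2.3 and 16.4 of its array, and its differences from control were -0.21, 0.19 and -0.25 in that order.

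Double siRNA against ETV6 siRNA is the comparison whose mean difference uses none of the arrays on which BCAT1 was chosen. Its SE and adjusted p come from the fit over all 12 arrays, so its estimate of spread includes control and NFKB1 siRNA arrays. The calls of all 4 BCAT1 probe sets were kept when only the groups compared were fitted. It asks what NFKB1 siRNA adds to ETV6 siRNA. All 4 BCAT1 probe sets were called in it (limma, Benjamini-Hochberg adjusted p under 0.05 over all 17313 probe sets), where 82.7% of all probe sets were called (39.4% higher, 43.2% lower). The bright probe sets rose: 225285_at by 1.27 (SE 0.15, 2.41-fold, adjusted p = 2.84e-05) and 226517_at by 1.20 (SE 0.20, 2.29-fold, adjusted p = 0.000242). The dim ones fell by 0.67 (214452_at, adjusted p = 8.93e-05) and by 0.44 (214390_s_at, adjusted p = 0.000384). Averaging the 4 probe sets before the fit gave a rise of 0.34 (adjusted p = 0.0164). The arrays of the groups did not overlap for any of the 4, and 87.4% of all probe sets had no overlap there. Over the 12 arrays the bright pair had Pearson r = 0.99 and the dim pair r = 0.84, against 0.44 for 225285_at with 214452_at and 0.03 with 214390_s_at. These correlations share arrays and groups and are a description. The sources used here do not say which BCAT1 transcripts each probe set reads.

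**Figure D1:**
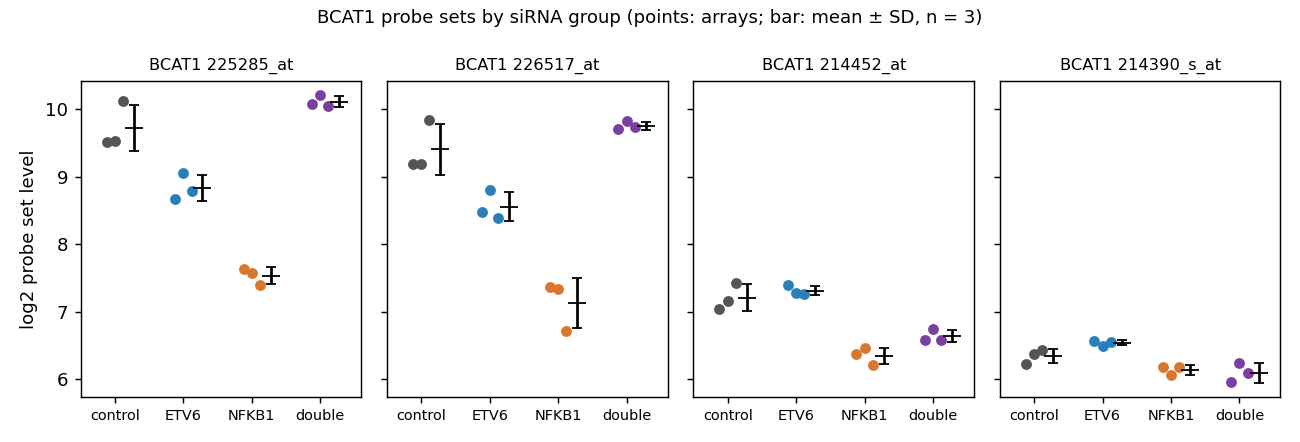
Log2 level of the 4 BCAT1 probe sets in each of the 12 arrays by siRNA group, where points are arrays and bars the mean ± SD (n = 3). In 225285_at and 226517_at the NFKB1 siRNA arrays are lowest (7.39 to 7.64 and 6.71 to 7.37) and the double siRNA arrays high, whereas in 214452_at the double siRNA arrays (6.59 to 6.74) lie near the NFKB1 siRNA arrays.

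The genes most like BCAT1 225285_at over the 12 arrays were CTR9 (r = 0.991), a subunit of the PAF1 elongation complex, REV3L (0.989), the catalytic subunit of DNA polymerase zeta, the phosphatase CDC14B (0.987), the laminin chain LAMA4 (0.987) and the actin-binding LIMA1 (0.986). CTR9 averaged 9.39 with control, 8.96 with ETV6, 8.52 with NFKB1 and 9.48 with double siRNA, and REV3L averaged 9.29, 8.67, 8.04 and 9.39. The order of the group means was that of BCAT1, over a narrower range. The lowest correlations were those of ZCCHC3 (-0.985), the Krüppel-like factor KLF13 (-0.984) and the pseudokinase TRIB1 (-0.982). Of 8389 genes compared 559 (6.66%) had r above 0.9, so the pattern was common, and all points share the 12 arrays.

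The 6 other genes were then compared over their 10 probe sets. ETV6 siRNA against control called 0 of 10 (limma, adjusted p under 0.05), beside 6.35% of all probe sets, with differences from -0.19 to 0.17. Double siRNA against control called 9 of 10, of which 6 rose and 3 fell, beside 76.4% of all probe sets (36.5% higher, 39.9% lower). The 6 rises are 3 probe sets of DBT, 2 of DLD and 1 of BCKDHB, so they come from 3 genes. By brightest probe set all 6 genes were called, 3 higher and 3 lower, beside 77.5% of all genes. Their median difference was 0.21, against -0.11 over all genes, and the median over the 10 probe sets, 0.79, counts DBT and DLD more than once. Against ETV6 siRNA alone and against NFKB1 siRNA alone, double siRNA also called 9 of 10 each time (6 higher and 3 lower), beside 82.7% and 87.3% of all probe sets (for NFKB1 siRNA 42.7% higher and 44.7% lower). By brightest probe set all 6 genes were called in both, 3 higher and 3 lower, beside 83.4% and 88.1% of all genes. Shares of that size are near the background. The median differences over the 6 genes were 0.11 and 0.00, against -0.15 and -0.16 over all genes. ETV6 siRNA against NFKB1 siRNA called 2 of 10, 1 in each direction, beside 26.8% (18.9% higher, 7.95% lower). Each of these comparisons with double siRNA uses the same 3 double siRNA arrays, so they are not independent of each other.

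BCAT2, the mitochondrial aminotransferase, was lowest with double siRNA. It read log2 8.76, 8.61 and 8.59 with control siRNA and 8.89, 8.84 and 8.75 with ETV6 siRNA. It read 8.96, 8.92 and 8.97 with NFKB1 siRNA and 8.31, 8.30 and 8.24 with double siRNA. The double siRNA arrays lay below all others and the NFKB1 siRNA arrays above all others. BCAT2 fell by 0.37 with double siRNA against control (SE 0.06, to 77.3%, limma adjusted p = 0.000256) and by 0.54 against ETV6 siRNA (adjusted p = 2.15e-05). It was 0.30 above control with NFKB1 siRNA. With ETV6 siRNA it was 0.17 above control (SE 0.06, adjusted p = 0.145, arrays overlapping), and without control replicate 1 that difference was 0.23 (adjusted p = 0.0487).

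Both subunits of the E1 component were measured, and their brightest probe sets changed in opposite directions with double siRNA. BCKDHA, the alpha subunit, read 9.32, 9.18 and 8.88 with control siRNA and 9.26, 9.11 and 9.15 with ETV6 siRNA. It read 9.44, 9.32 and 9.33 with NFKB1 siRNA and 8.50, 8.60 and 8.66 with double siRNA. It fell by 0.54 with double siRNA against control (SE 0.10, to 68.7%, limma adjusted p = 0.000502) and by 0.59 against ETV6 siRNA. Control replicate 3 was the lowest control array, nearest to the double siRNA arrays, and without it the difference from control was -0.66. NFKB1 siRNA stood 0.24 above control, and 0.12 without control replicate 3.

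BCKDHB, the beta subunit, read 8.10, 8.11 and 8.36 with control siRNA and 8.15, 8.40 and 8.17 with ETV6 siRNA by 213321_at. It read 8.05, 7.98 and 7.97 with NFKB1 siRNA and 8.97, 8.96 and 9.03 with double siRNA. All double siRNA arrays lay above the other 9, and all NFKB1 siRNA arrays below the controls. The rise with double siRNA was 0.79 over control (SE 0.08, 1.73-fold, limma adjusted p = 1.72e-05) and 0.75 over ETV6 siRNA (adjusted p = 2.14e-05). The dimmer probe set, 210653_s_at, ranged from 7.27 to 7.66 over all arrays with every pair of groups overlapping, and its difference of 0.09 with double siRNA (SE 0.09, adjusted p = 0.398) was not called. Against NFKB1 siRNA it was 0.15 higher (adjusted p = 0.146), and 0.22 without NFKB1 siRNA replicate 2 (adjusted p = 0.0491). The 2 probe sets therefore disagree on BCKDHB.

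BCKDK, the kinase that inhibits E1, fell with double siRNA. It read 8.38, 8.24 and 8.20 with control siRNA and 8.31, 8.22 and 8.20 with ETV6 siRNA. It read 8.54, 8.63 and 8.44 with NFKB1 siRNA and 7.65, 7.77 and 7.77 with double siRNA. Control and ETV6 siRNA arrays overlapped, NFKB1 siRNA lay above them and double siRNA below. The fall with double siRNA was 0.54 against control (SE 0.07, to 68.6%, limma adjusted p = 5.24e-05) and 0.81 against NFKB1 siRNA (adjusted p = 1.74e-06). ETV6 siRNA was 0.29 below NFKB1 siRNA (SE 0.07, adjusted p = 0.0115), and NFKB1 siRNA was 0.27 above control.

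DBT, the E2 core that carries the acyl group on lipoate, rose with double siRNA by all 3 probe sets. Its brightest, 205370_x_at, read 9.05, 9.02 and 9.31 with control siRNA and 9.26, 9.17 and 9.31 with ETV6 siRNA. It read 9.33, 9.31 and 9.32 with NFKB1 siRNA and 10.05, 9.82 and 10.10 with double siRNA. Only the double siRNA arrays stood clear of the others. The rise over control was 0.86 (SE 0.09, 1.82-fold, limma adjusted p = 1.49e-05), and over ETV6 siRNA it was 0.74 (adjusted p = 2.89e-05). The ending _x_at marks probes that can also match other transcripts.
The dim DBT probe sets rose by 0.78 (205369_x_at, adjusted p = 0.00165) and 1.01 (244687_at, adjusted p = 0.00116). They lay between percentiles 0.43 and 11.8 of their arrays, close to the lower end of the scale, whose lowest value was 4.88 to 5.10 on the double siRNA arrays and 3.05 to 3.79 on the others. The part of that shift in their rise was not tested. Whether rows had been filtered by level before deposit was not examined. The presence of these dim probe sets may therefore depend on the double siRNA arrays, where they were highest.

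DLD, the E3 dehydrogenase that this complex shares with the pyruvate and 2-oxoglutarate dehydrogenases, had the largest rise with double siRNA among the brightest probe sets of the 6 genes. Probe set 209095_at read 10.93, 11.00 and 11.38 with control siRNA and 10.98, 11.20 and 11.18 with ETV6 siRNA. It read 10.71, 10.76 and 10.81 with NFKB1 siRNA and between 12 and 12.07 with double siRNA. The double siRNA arrays were above and the NFKB1 siRNA arrays below all others. DLD rose by 0.92 over control (SE 0.11, 1.9-fold, limma adjusted p = 2.55e-05), by 0.91 over ETV6 siRNA and by 1.27 over NFKB1 siRNA. The dimmer 230426_at rose by 1.03 over control (SE 0.16, adjusted p = 0.000143), and NFKB1 siRNA stood 0.49 below control in it.
ETV6 siRNA was 0.36 above NFKB1 siRNA by 209095_at (SE 0.11, adjusted p = 0.0285). That call was lost once array medians were made equal (0.28, adjusted p = 0.0651), which left calls for BCAT2 and BCKDK alone, both lower. It was also lost without ETV6 siRNA replicate 2 (0.32, adjusted p = 0.108) or 3 (0.0807), and without NFKB1 siRNA replicate 1 (0.0819) or 2 (0.0687). Without control replicate 3 the count for ETV6 against NFKB1 siRNA was 5 of 10 instead of 2.

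**Figure D2:**
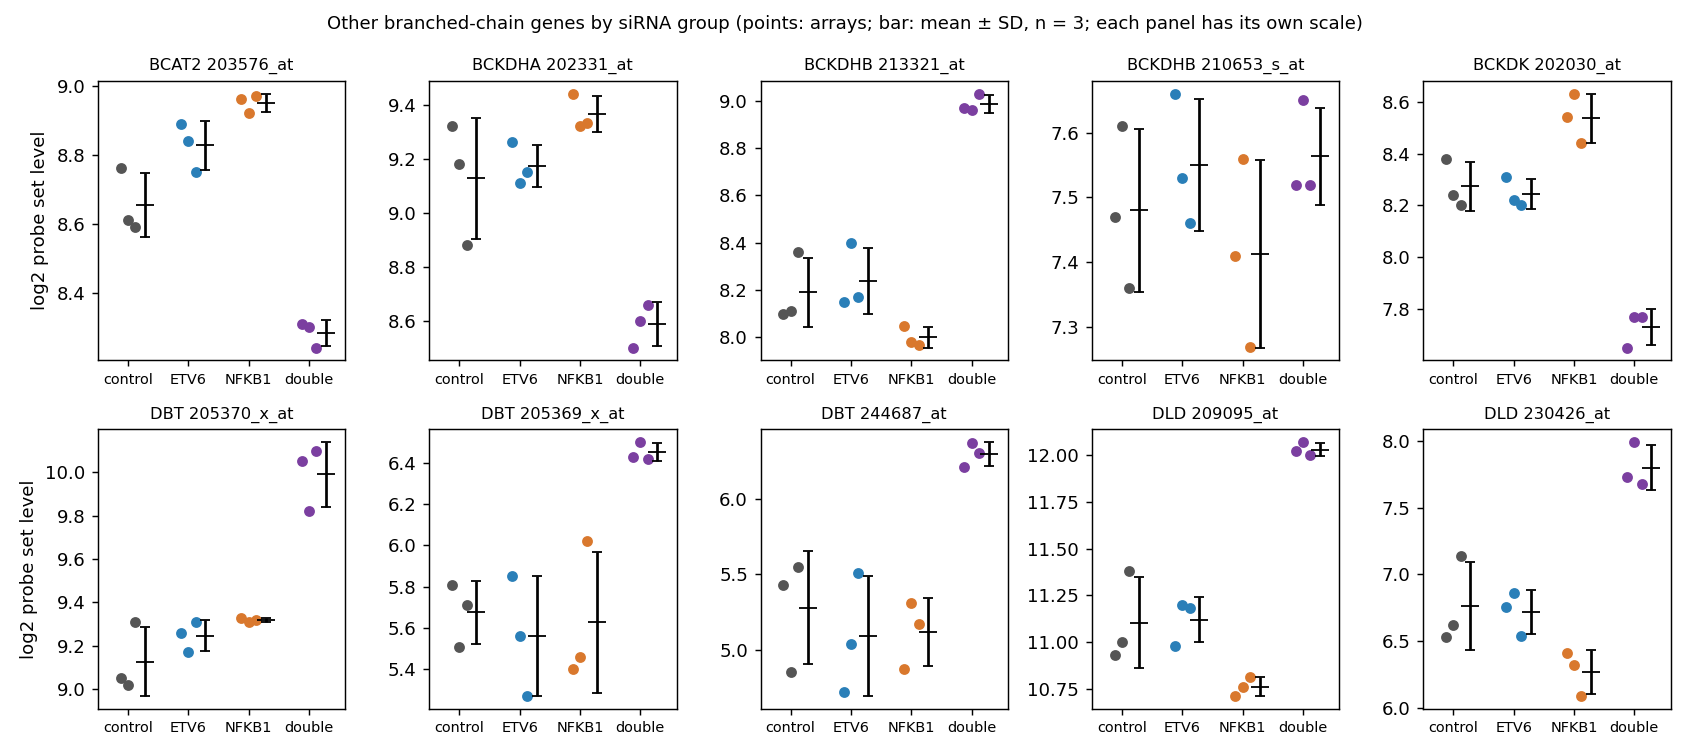
Log2 level of the 10 probe sets of the 6 other genes in each array by siRNA group, where points are arrays, bars the mean ± SD (n = 3), and each panel has its own vertical scale. The double siRNA arrays are lowest for BCAT2, BCKDHA and BCKDK and highest for BCKDHB 213321_at, DBT and DLD, and overlap the other groups in BCKDHB 210653_s_at.

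With NFKB1 siRNA alone the direction split among the same genes, as a description. BCAT2, BCKDHA and BCKDK had all 3 arrays above all controls, by 0.30, 0.24 and 0.27. BCKDHB 213321_at and both DLD probe sets had all arrays below, by -0.19, -0.34 and -0.49. The DBT arrays overlapped the controls in all 3 probe sets. That made 6 of 10 probe sets without overlap, where 44% of all probe sets had none, and nothing is read from it because the rule used this comparison. The even split also moved with array scaling, to 4 higher and 1 lower with array medians made equal and to 4 and 2 with quantile normalization. Over the 12 arrays DLD 209095_at had r = -0.98 with BCKDHA, -0.98 with BCKDK and 0.98 with BCKDHB 213321_at, and BCAT1 225285_at had r = -0.87 with BCAT2. All of these correlations share the 12 arrays and are a description.

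**Figure D3:**
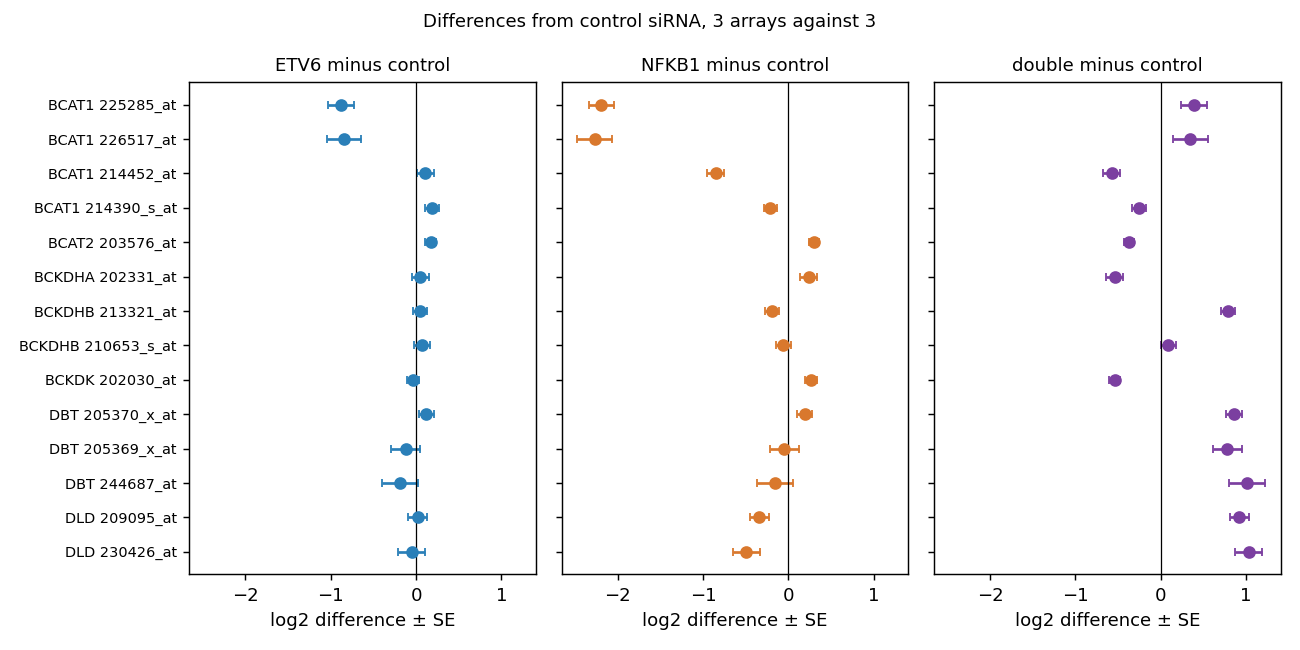
Log2 difference from control siRNA (horizontal axis) of the 14 probe sets, with bars of 1 SE from the fit over 12 arrays, for ETV6, NFKB1 and double siRNA. BCAT1 225285_at and 226517_at lie at -2.19 and -2.27 with NFKB1 siRNA and at 0.39 and 0.35 with double siRNA, while DBT and DLD lie at 0.78 to 1.03 with double siRNA.

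Array scaling bears on every comparison with double siRNA. Shifting all arrays to the same median moved the median difference of all probe sets from -0.04 to -0.15 for double siRNA against control, from -0.06 to -0.17 against ETV6 siRNA and from -0.04 to -0.24 against NFKB1 siRNA. The 6 rises and 3 falls of the 6 genes were called in each of these comparisons under that scaling and under quantile normalization.

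The rest of the pathway was read through lists of 56 genes, of which 46 were measured, each by its brightest probe set. ETV6 siRNA against control called 4 of 46 (3 higher, 1 lower), beside 6.86% of all genes (2.59% higher, 4.27% lower). NFKB1 siRNA called 17 of 46, or 37% (7 higher, 10 lower), beside 34.5% of all genes (12.5% higher, 22% lower). Double siRNA called 35 of 46, or 76.1% (15 higher, 20 lower), beside 77.5% of all genes (32.3% higher, 45.2% lower). Against ETV6 siRNA it called 38, or 82.6% (15 higher, 23 lower), beside 83.4% of all genes (35.1% higher, 48.3% lower). The shares called were thus close to those of all genes. With array medians made equal the split for NFKB1 siRNA was 15 higher and 8 lower, and with quantile normalization 14 and 9. Over all probe sets 31.9% of the calls for NFKB1 siRNA were higher, against 54.7% and 53% under those scalings. The median differences were 0.06, -0.06 and -0.05 for ETV6, NFKB1 and double siRNA, against 0.01, 0.01 and -0.11 over all genes. The adjusted p-values of these genes come from limma over all probe sets. When only the groups compared were fitted, all 4 calls with ETV6 siRNA were lost (0 of 46), and with NFKB1 siRNA 10 of 46 were called. The calls lost there were those of ALDH6A1, ACAD8, SLC38A9, GOT2, DLAT, DLST and LARS1.

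PPM1K, the phosphatase that reactivates the complex, rose with double siRNA by 0.57 (SE 0.13, adjusted p = 0.00173) and by 0.64 against ETV6 siRNA, and was at -0.07 and -0.12 with ETV6 and NFKB1 siRNA, neither called. The kinase BCKDK and this phosphatase thus changed in opposite directions with double siRNA.

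Of the leucine arm, 5 of 6 listed genes were measured and all 5 changed with double siRNA, beside 77.5% of all genes. OXCT1, which activates ketone bodies, rose by 0.99 (SE 0.10, adjusted p = 1.26e-05) and AUH, the methylglutaconyl-CoA hydratase, by 1.09 (SE 0.10, adjusted p = 7.43e-06). The subunits of methylcrotonyl-CoA carboxylase parted, MCCC1 rising by 0.47 and MCCC2 falling by 0.40, although the second probe set of MCCC2 stood at 0.08. IVD, the isovaleryl-CoA dehydrogenase, fell by 0.28 with double siRNA (adjusted p = 0.00286) and rose by 0.26 with NFKB1 siRNA (adjusted p = 0.0145), the only call of this arm there. That call was lost with the mean of its probe sets (0.18, adjusted p = 0.0987). AUH was the only call with ETV6 siRNA (0.36, adjusted p = 0.0481). That call was lost when any of 11 of the 12 arrays was left out, with adjusted p up to 0.141.

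In the isoleucine arm all 4 genes changed with double siRNA, beside 77.5% of all genes. ETV6 and NFKB1 siRNA alone each called 0 of 4 (limma), beside 6.86% and 34.5% of all genes, and whether the arm responds differently to double siRNA was not tested. ACADSB, the short/branched-chain acyl-CoA dehydrogenase, had the largest change of all listed genes, a rise of 2.02 (SE 0.19, adjusted p = 8.47e-06), and its second probe set stood at 1.04. ACAT1, the thiolase of the last step, rose by 0.36. HSD17B10, the hydroxyacyl-CoA dehydrogenase of this arm, fell by 0.58 and ECHS1, the enoyl-CoA hydratase, by 0.31.

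In the valine arm 2 of 4 genes rose with double siRNA, beside 32.3% of all genes, HIBCH by 0.47 and HIBADH by 0.34. With NFKB1 siRNA HIBCH, the hydroxyisobutyryl-CoA hydrolase, fell by 0.44 (SE 0.11, adjusted p = 0.00958) and ALDH6A1, the methylmalonate semialdehyde dehydrogenase, by 0.29, with 2 other ALDH6A1 probe sets at 0.08 and 0.10 and the mean of its probe sets at -0.04 (adjusted p = 0.683). ACAD8, the isobutyryl-CoA dehydrogenase, rose there by 0.24 (adjusted p = 0.0195), a call lost without NFKB1 siRNA replicate 2 (adjusted p = 0.0675) and in 1 other such fit.

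Propionyl-CoA from isoleucine and valine enters the propionate arm. There 4 of 5 genes were called with double siRNA (2 in each direction), beside 77.5% of all genes. With NFKB1 siRNA 1 of 5 was called, beside 34.5% of all genes. The mutase of this arm, MMUT, rose with double siRNA by 1.09 (SE 0.10, adjusted p = 9.53e-06), with a second probe set at 1.37. MMAB, which makes the cobalamin cofactor of the mutase, fell by 0.46 with double siRNA. The second MMAB probe set stood at -0.11 and the mean of its probe sets at -0.28. PCCB, a propionyl-CoA carboxylase subunit, rose by 0.32 with NFKB1 siRNA (adjusted p = 0.00158). With double siRNA PCCA (0.29, adjusted p = 0.0463) and PCCB (-0.14, adjusted p = 0.0408) were called, and both calls were lost without control replicate 2 (adjusted p = 0.184 and 0.156) and in most other fits that left out 1 array. The PCCA call was also lost with array medians made equal (0.18, adjusted p = 0.182).

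**Figure D4:**
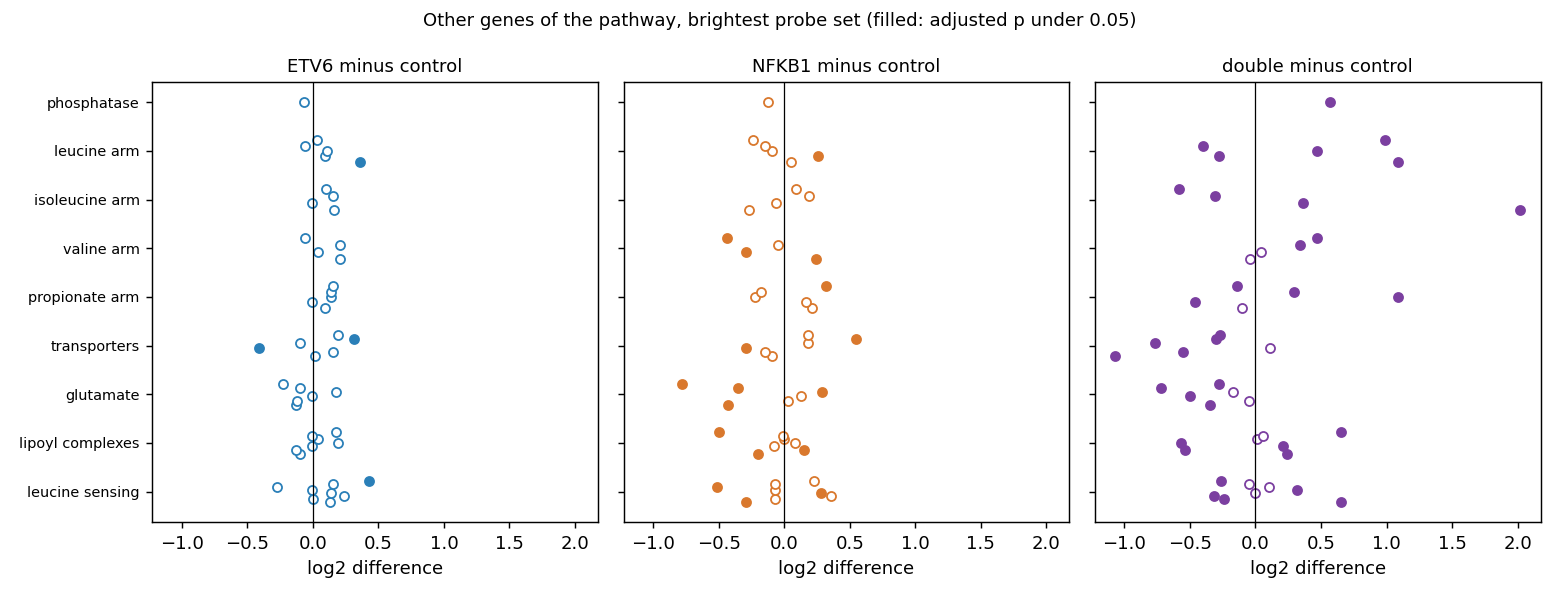
Log2 difference from control siRNA (horizontal axis) of the 46 other measured genes by list, for ETV6, NFKB1 and double siRNA, where each point is the brightest probe set of a gene and filled points have adjusted p under 0.05. Filled points number 4, 17 and 35, and the farthest right with double siRNA is ACADSB at 2.02.

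Among amino acid transporters 5 of 6 fell with double siRNA and the other was not called, at 0.11, beside 77.5% of all genes called and 45.2% lower in that comparison. SLC7A5, the light chain of the large neutral amino acid exchanger that imports leucine, averaged 0.31 above control with ETV6 siRNA (adjusted p = 0.0227) and 0.55 with NFKB1 siRNA (SE 0.07, adjusted p = 0.000183), and fell by 0.30 with double siRNA (adjusted p = 0.00176). The call with ETV6 siRNA was lost without ETV6 siRNA replicate 3 (adjusted p = 0.0887) and in 2 other such fits. Its heavy chain SLC3A2 fell by 0.77 with double siRNA (adjusted p = 1.09e-05), and the glutamine transporter SLC1A5 fell by 1.07 (SE 0.13, adjusted p = 3.37e-05). SLC25A44, the mitochondrial carrier of branched-chain amino acids, fell by 0.55. The lysosomal SLC38A9 fell by 0.41 with ETV6 siRNA (SE 0.07, adjusted p = 0.00733) and by 0.29 with NFKB1 siRNA, and was not called with double siRNA.

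The glutamate list follows the amino group that BCAT1 and BCAT2 transfer. With NFKB1 siRNA 4 of 6 genes were called, 3 of them lower, beside 34.5% of all genes called. SLC1A3, the glial glutamate transporter, fell by 0.78 (SE 0.08, adjusted p = 6.15e-05), the glutamate dehydrogenase GLUD1 by 0.43 (adjusted p = 0.000349) and the phosphoserine aminotransferase PSAT1 by 0.35. Dimmer probe sets of the latter pair stood at -0.11 and -0.10. GOT2, the mitochondrial aspartate aminotransferase, was higher by 0.29 (adjusted p = 0.0273), and without control replicate 3 by 0.20 (adjusted p = 0.0881), a call lost in 3 other such fits too. With double siRNA 4 of 6 fell, beside 45.2% of all genes. PSAT1 fell by 0.72 (SE 0.06, adjusted p = 5.68e-06), although its dimmer probe set stood at -0.24 and the mean of its probe sets at -0.48. The cytosolic aminotransferase GOT1 fell by 0.50, GLUD1 by 0.35 and SLC1A3 by 0.28. With ETV6 siRNA 0 of 6 were called (limma), beside 6.86% of all genes.

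Complexes that use the same lipoyl chemistry, and in part the same E3, were mixed. With double siRNA 5 of 7 genes changed, beside 77.5% of all genes, PDHX of the pyruvate dehydrogenase rising by 0.65 (SE 0.10, adjusted p = 0.000195) and its E2 core DLAT by 0.24 (0.14 with array medians made equal, adjusted p = 0.0865, not called), while DLST and OGDH of the 2-oxoglutarate dehydrogenase fell by 0.54 and 0.57. PDHA1 and PDHB, the E1 subunits of pyruvate dehydrogenase, stood at 0.01 and 0.06 (SE 0.05 and 0.06) and were not called. With NFKB1 siRNA PDHX fell by 0.50 (adjusted p = 0.00399). DLAT (-0.20, adjusted p = 0.0195) and DLST (0.15, adjusted p = 0.0374) were also called there, and lost the call in 3 and 10 of the 12 fits without 1 array. The DLAT call was also lost with array medians made equal (-0.11, adjusted p = 0.198) and with quantile normalization (-0.15, adjusted p = 0.0584).

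Of the genes listed for leucine sensing and mTORC1 itself, 3 of 8 were called with NFKB1 siRNA, beside 34.5% of all genes. RRAGC, a Rag GTPase, fell by 0.51 (SE 0.07, adjusted p = 0.000539) and the leucyl-tRNA synthetase LARS1 by 0.29, and RRAGA rose by 0.28 (adjusted p = 0.000823). The LARS1 call was lost with array medians made equal (-0.20, adjusted p = 0.0701). With double siRNA 5 of 8 were called (2 higher, 3 lower), beside 77.5% of all genes. LARS1 rose by 0.65 (SE 0.07, adjusted p = 2.06e-05), and RRAGC was not called, at 0.10. The leucine sensor SESN2 was 0.43 above control with ETV6 siRNA (adjusted p = 0.0284) and -0.26 with double siRNA (adjusted p = 0.0326). The first call was lost without ETV6 siRNA replicate 1 (adjusted p = 0.115), the second without control replicate 2 (adjusted p = 0.104), and each in 3 further such fits. With the mean of the SESN2 probe sets the first was also lost (0.31, adjusted p = 0.068) and the second was kept (-0.43, adjusted p = 0.00127).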

How the data were processed

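Total RNA of 12 U251 samples in 4 groups of 3 was labelled and hybridized to Affymetrix arrays, per the labels' protocols. The authors deposited log2 probe set levels; background correction, summarization and normalization are not given in the sources used here. Of 19520 rows 17313 named 1 gene in the platform's probe table, 857 several, 1293 none and 57 were controls. Entrez identifiers of 17307 matched RefSeq.

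The package limma 3.58.1 in R 4.3.3 fitted 1 linear model with group means to the 12 arrays over 17313 probe sets (lmFit, eBayes, 8 residual and 3.03 prior degrees of freedom), with no filter on level. Tests were two-sided, p-values were Benjamini-Hochberg adjusted over all probe sets of a comparison, and under 0.05 was called. The fit was tested on simulated data. The exact permutation test of 3 against 3 cannot go below 0.1 and was not used. The number of arrays limits the precision.

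The members and gene lists were chosen with earlier results of these data known. All member probe sets are reported. Up to 4 called genes per list and comparison were named by smallest adjusted p. The values of other genes and probe sets given beside them were chosen after they were seen. For likeness to BCAT1, Pearson r was taken over genes with a mean at or above the 25th percentile, and the 5 highest and 3 lowest were named.

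Promoter windows were read from RefSeq (GRCh38.p14), and motifs were searched on both strands of the 250 bases before each start; matches may overlap. Alternatives were 2 scalings (median shift, quantile), the 25th-percentile filter, 1 probe set or the probe set mean per gene, array weights, trend and robust variances, only the groups compared, a replicate block, leaving out each array, and leaving out control replicate 3 with ETV6 siRNA replicate 2.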

Additional observations from a re-analysis of the deposited data

How the results depend on the processing

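Of 33 called results of the 7 genes, 32 kept direction and call in every alternative run, the exception being DLD 209095_at for ETV6 against NFKB1 siRNA. Of 82 called results of the other pathway genes 65 did. These 82 were picked by smallest adjusted p, up to 4 per list and comparison. The remaining called results of the lists were not followed singly through the alternatives. For double against ETV6 siRNA the BCAT1 count of 4 became 2 with the 25th-percentile filter, and 1 with only the brightest probe set or with the mean of its probe sets in the fit, because fewer were tested. With array weights the 6 other genes gave 1 call for ETV6 siRNA against control and 5 for ETV6 against NFKB1 siRNA. The pathway lists then gave 18 for ETV6 siRNA and 26 for NFKB1 siRNA against control, and 0 and 10 when only the groups compared were fitted. Leaving out 1 array gave 0 to 1 calls among the 6 genes for ETV6 siRNA against control (1 without control replicate 1). It gave 1 to 5 for ETV6 against NFKB1 siRNA (5 without control replicate 3, and 1 without ETV6 siRNA replicate 2 or NFKB1 siRNA replicate 1 or 2). It gave 1 to 5 pathway calls for ETV6 siRNA against control (1 without any one ETV6 siRNA array), 13 to 20 for NFKB1 siRNA and 30 to 37 for double siRNA. The 225285_at difference for NFKB1 siRNA stayed between -2.29 and -1.99. The causes of these changes were not tested.

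No clear pairing of the arrays by replicate number was seen, although 3 arrays per group are too few to exclude one. Deviations of same-numbered arrays had correlations from -0.22 to 0.20, -0.44 to 0.14 and -0.33 to 0.45 for numbers 1, 2 and 3, and 2 of 12 arrays correlated best with their own number. With a replicate block the calls over all probe sets were 907 instead of 1099 for ETV6 siRNA, 5903 instead of 6035 for NFKB1 siRNA and 13229 instead of 13234 for double siRNA, and the BCAT1 count stayed at 4.

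The sign turned only in results that were not called. For ETV6 siRNA against control, array weights gave BCKDHA -0.01, BCKDHB 210653_s_at -0.04, DLD 230426_at 0.08 and DBT 244687_at 0.20. The mean of the probe sets gave DBT -0.06 and DLD -0.01, and leaving out control replicate 3 with ETV6 siRNA replicate 2 gave BCKDHA -0.04 and DLD 230426_at 0.07. For BCKDHB 210653_s_at the median shift and quantile normalization gave -0.02 and -0.01 against control, -0.10 and -0.10 against ETV6 siRNA and -0.05 and -0.06 against NFKB1 siRNA, all with double siRNA. Array weights gave it -0.03 for double siRNA against control. For ETV6 against NFKB1 siRNA array weights gave DBT 205369_x_at 0.05 and 244687_at 0.02. Without 1 array, ETV6 siRNA against control ranged from -0.07 to 0.03 for BCKDK, -0.07 to 0.15 for BCKDHA and for DLD 209095_at, -0.03 to 0.13 for BCKDHB 213321_at and -0.16 to 0.14 for DLD 230426_at. It ranged from -0.26 to 0.03 for DBT 205369_x_at and -0.40 to 0.00 for DBT 244687_at. ETV6 against NFKB1 siRNA ranged from -0.22 to 0.13 for 205369_x_at and -0.24 to 0.16 for 244687_at, and BCKDHB 210653_s_at for double against ETV6 siRNA from -0.03 to 0.07.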
